A study of Mus musculus with 77 samples.

Results

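The 8 genes Abca1, Abcg1, Hmgcs1, Sqle, Insig1, Srebf1, Srebf2 and Npc1 cover the efflux, uptake, synthesis and control of cholesterol, and they were taken by symbol from the tables of AGO2-bound mRNA and of blood mRNA. All 8 were present among the 16587 genes of the AGO2 table and among the 13084 genes of the blood table. The mice were 8-week-old males of the strains C57BL/6Crl (B6) and DBA/2Crl (D2) that had gone through chronic social defeat stress (CSDS), a daily confrontation with an aggressive male, or had served as undefeated controls. Defeated mice were called susceptible when they avoided social contact and resilient when they did not, and tissue was taken 6 to 8 days after the last defeat. The AGO2 libraries came from B6 mice only, with 5 control, 5 resilient and 4 susceptible libraries, each made from 3 pooled samples of the BNST (bed nucleus of the stria terminalis), a part of the extended amygdala. The blood libraries came from single mice, with 5 B6 control, 5 B6 resilient, 5 B6 susceptible, 5 D2 control and 5 D2 susceptible mice. Defeated mice for sequencing had been picked from the ends of the behavioural range, and controls from near their mean. Nothing in the sources says that the AGO2 pools share no mice or cages, so p-values measure the spread between these libraries.

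Cells keep cholesterol within narrow limits by making it, taking it up in lipoproteins and exporting it. In the endoplasmic reticulum, INSIG1 holds the precursors of the transcription factors SREBP1 and SREBP2 (genes Srebf1 and Srebf2) in place while sterols are plentiful. When sterols fall, the SREBPs are cleaved and switch on synthesis genes such as Hmgcs1 and Sqle, whereas oxysterols act on liver X receptors (LXRs) to raise Abca1, Abcg1 and Srebf1. AGO2 is the protein that carries a microRNA to its target mRNAs, so an AGO2 immunoprecipitate holds mRNAs together with the miRNAs that may bind them. A miRNA inside Srebf2, miR-33, is known to act on Abca1.

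The miR-33 sequences are shown because they tie 3 of the 8 genes together: the host gene and both efflux genes. The capitals mark bases 2 to 8, the seed, in the RefSeq sequences on GRCm38.p6.
miR-33-5p: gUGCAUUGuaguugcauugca
miR-33-3p: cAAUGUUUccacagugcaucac
miR-33-5p lies at chr15:82198127-82198147 on the plus strand, inside intron 16 of the 19-exon transcript Srebf2-201. The letters CAATGCA, which pair with its seed, were searched on the transcript strand in the longest annotated 3' UTR of each gene. They occurred 3 times in the 3156-base UTR of Abca1 and 2 times in the 3703-base UTR of Abcg1, against at least 1 match in 8.89% of 13886 UTRs with a median length of 1433 bases. The UTRs of the other 6 genes held no match. In Abca1 the first and the second match share 2 of their bases, and all 3 fit into 30 bases at chr4:53033783-53033812 on the minus strand, 135 bases behind the stop codon.
Abca1: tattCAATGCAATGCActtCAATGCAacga
The 2 matches of Abcg1 lie within 25 bases at chr17:31114998-31115022 on the plus strand, 717 bases behind the stop codon.
Abcg1: aacgCAATGCAacgCAATGCAgaca
Here the capitals mark the seed matches, which are descriptions of letters and not measured binding sites.

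Among the 5 genes of the 8 with a RefSeq promoter window of 300 bases, only the window of Hmgcs1, the synthase that feeds the mevalonate pathway, held the sterol-element letters TCACNCCAC on either strand. They stood 137 bases before the start site at chr13:119690204-119690233 on the plus strand, shown with the match in capitals.
Hmgcs1: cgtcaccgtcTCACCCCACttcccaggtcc
These letters were found in 1.24% of 32851 promoter windows. The E-box letters CACGTG were found in the windows of Abca1 and Insig1 and in 7.15% of all windows. The windows of Srebf1 and Srebf2 held neither motif, and windows of Abcg1, Sqle and Npc1 were not used here.

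Depth differed between libraries. The deposited values gave back between 3701281 and 10659882 reads per AGO2 mRNA library and between 9751603 and 15878495 reads per blood mRNA library. The lowest of the 8 genes, Sqle in blood, rested on 21 to 91 reads per mouse, and Abca1 in the AGO2 libraries on 391 to 1410. The blood libraries of 2 D2 mice carried opposite groups in their sample label and their column name. One was labelled susceptible and named control, the other was labelled control and named susceptible, and the labels were followed with values also given without both. Levels are log2 CPM (read counts relative to library size), scaled by the authors separately in each table, so levels of AGO2 libraries and of blood are set side by side and not tested against each other. The marker genes of neurons, glia and endothelium were all present in the AGO2 libraries, and markers of 7 blood cell types were all present in blood. In such bulk samples fewer cells of a type and less RNA per cell cannot be told apart. No input library of the immunoprecipitates was analysed here, so more binding to AGO2 and more mRNA in the tissue cannot be told apart either. The paper's authors adjusted the AGO2-bound mRNA for experimental cohort before testing, which was not done here.

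Per length of exon, Hmgcs1 and Insig1 stood highest among the 8 genes in the AGO2 libraries, whereas both exporters led in blood. In the 5 control AGO2 libraries Hmgcs1 reached 40.8 ± 3.97 RPKM (CPM per kilobase of exon, SD, n = 5), at the 96.3rd percentile of 16535 genes. Insig1 followed with 31.4 ± 4.16 RPKM (SD, n = 5). Abcg1 with 17.5 RPKM and Srebf2 with 17.1 RPKM differed by less than their spread, as did Srebf1 (12.9), Npc1 (11.4), Sqle (11.2) and Abca1 (11.2), each with its neighbour in that order. In blood of B6 controls Abca1 had 5.67 ± 0.806 RPKM (SD, n = 5) and Abcg1 5.42 ± 0.716 RPKM (SD, n = 5), and these did not differ beyond their spread, nor did Abcg1 and Hmgcs1 (5.04 RPKM). Insig1 came next with 4.19 RPKM, lower than Hmgcs1 in 5 of 5 mice. Npc1 (1.90), Srebf1 (1.58) and Srebf2 (1.43) formed a lower group in B6 blood, and Sqle, with 0.857 ± 0.214 RPKM (SD, n = 5), was the lowest at the 25.5th percentile of 13054 genes. D2 control blood had Abca1 (7.02 RPKM) and Abcg1 (6.79 RPKM) ahead of Hmgcs1 (4.64 RPKM), here beyond the spread, and Sqle again lowest with 0.792 RPKM.

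**Figure D1:**
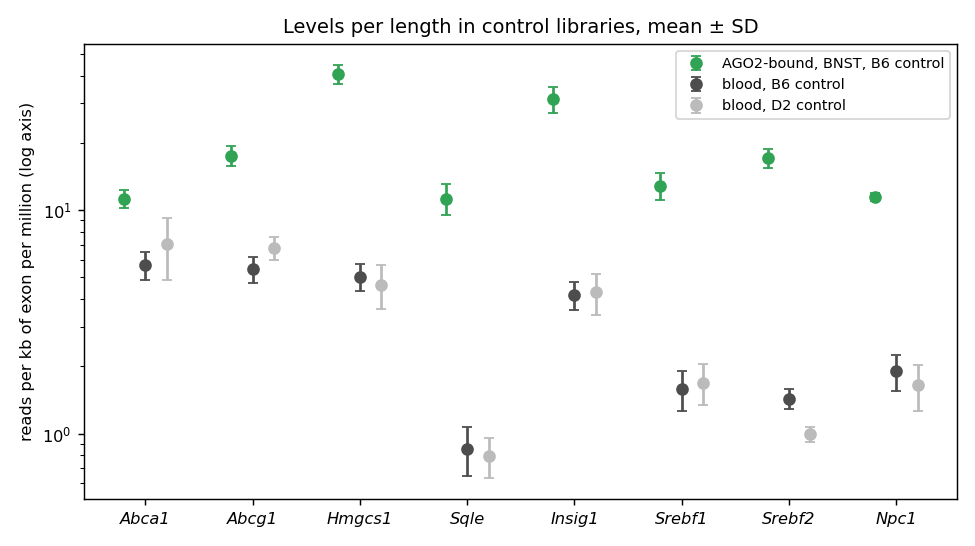
Level per length of exon (RPKM, log axis) of the 8 genes in control libraries, as mean ± SD of 5 AGO2 libraries of BNST pools (green), 5 B6 blood samples (dark grey) and 5 D2 blood samples (light grey). Hmgcs1 is the highest point of the AGO2 libraries at 40.8, and Sqle the lowest of both blood groups.

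Of the regulators, Srebf1 rose in the AGO2 libraries after defeat and Srebf2 did not. Srebf1 (chr11:60199089-60222581, minus strand, GRCm38) encodes SREBP1, which drives fatty acid and, in part, cholesterol synthesis and is itself a target of LXR. Its log2 CPM in the 5 control pools was 5.87, 6.12, 6.36, 6.38 and 6.12. In the 5 resilient pools it was 6.67, 6.58, 6.35, 6.34 and 6.56, and in the 4 susceptible pools 6.67, 7.13, 6.65 and 6.56. All 4 susceptible pools lay above every control pool, and 3 of 5 resilient pools did. In susceptible against control pools the log2 fold change was 0.585 with an SE of 0.129, a fold of 1.5, with a limma p of 0.000276 and an adjusted p of 0.0226 over all 16587 genes. The exact permutation test gave p = 0.00794, the smallest that 4 against 5 libraries allow. The adjusted p was above 0.05 without control pool 1 (0.0596) or susceptible pool 2 (0.0999), without a mean-variance trend (0.0582) and with a replicate block (0.0596). In resilient against control pools it was 0.33 with an SE of 0.12 (limma p = 0.0142, adjusted p = 0.141, exact permutation p = 0.0476). That call rested on 1 library, since without control pool 1 the log2 fold change was 0.26 with an SE of 0.12 and missed the threshold. The difference between susceptible and resilient pools, 0.25 with an SE of 0.13, did not pass the test (exact permutation p = 0.0794). It did pass at 0.33 when libraries were scaled to their total of recovered reads, at 0.28 after quantile normalization, and at 0.30 and 0.32 without resilient pool 1 or susceptible pool 4. The exons of Srebf1 share 109 bases with Rai1 on the opposite strand, and the strand setting of the counting is not given in the sources used here.

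Srebf2 (chr15:82147181-82205379, plus strand) encodes SREBP2, the main activator of the synthesis genes, and is the host gene of miR-33. Its level ranged from 6.75 to 7.10 in control, 6.61 to 7.26 in resilient and 6.62 to 7.09 log2 CPM in susceptible pools, and these ranges overlapped. Insig1 (chr5:28071363-28078662, plus strand), the sterol-dependent anchor of both SREBPs, ranged from 6.37 to 6.82, 6.04 to 6.63 and 6.24 to 6.84 log2 CPM in the same order, again with overlap. Neither gene passed the test in any of the 3 comparisons, with log2 fold changes from -0.16 to 0.13.

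**Figure D2:**
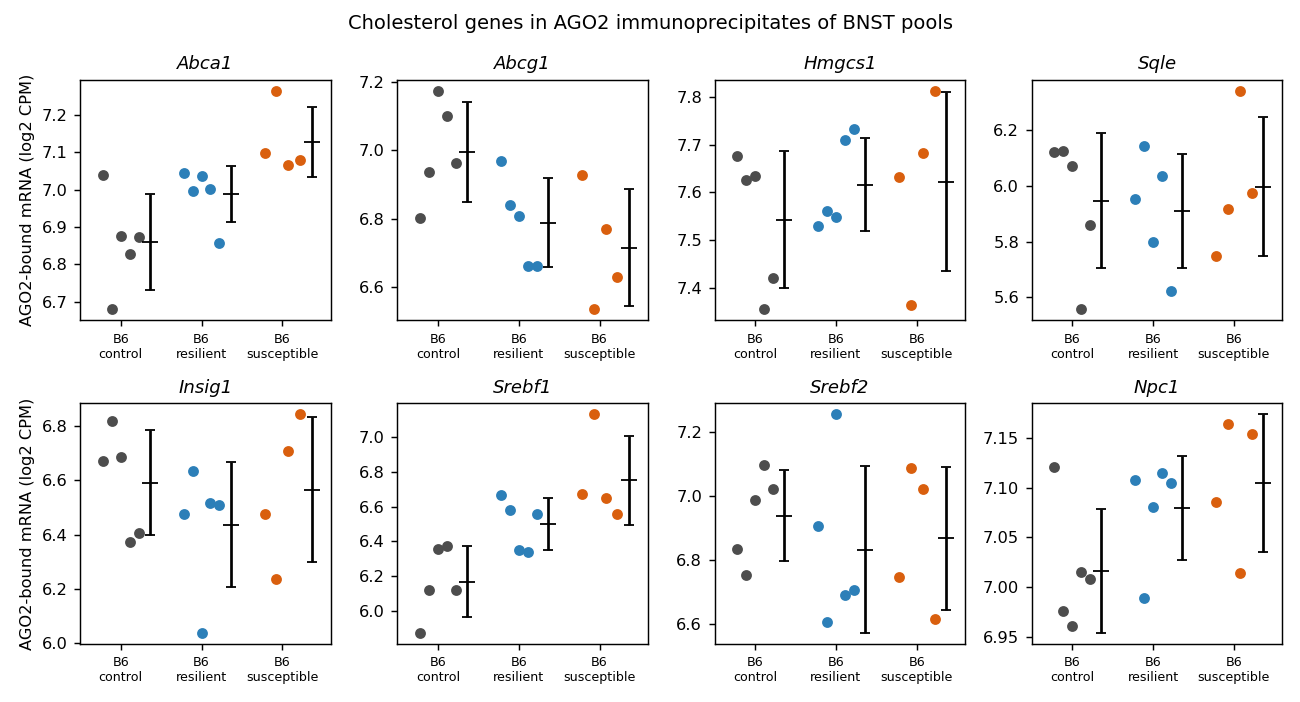
AGO2-bound mRNA of the 8 genes in log2 CPM (a separate vertical axis per gene), with 1 point per BNST pool for 5 control, 5 resilient and 4 susceptible pools and the mean ± SD in black. For Srebf1 and Abca1 all susceptible pools lie above all control pools, and for the other 6 genes the groups overlap. The share of all genes whose groups do not overlap is not given here.

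Of the exporters, Abca1 was higher and Abcg1 lower in AGO2 libraries of susceptible mice than in controls. ABCA1 moves cholesterol out of cells onto lipid-poor apolipoproteins, and ABCG1 passes it on to formed lipoprotein particles. Their genes lie at chr4:53030787-53159895 (minus strand) and chr17:31057675-31117988 (plus strand). Abca1 had log2 CPM of 7.04, 6.68, 6.88, 6.83 and 6.87 in control pools, 7.04, 7.00, 7.04, 7.00 and 6.86 in resilient pools and 7.10, 7.27, 7.07 and 7.08 in susceptible pools. The 4 susceptible pools were above all control pools and also above all resilient pools. Its log2 fold change in susceptible against control pools was 0.27 with an SE of 0.09, a fold of 1.204 that stood just above the minimum of 1.2 (limma p = 0.00643, adjusted p = 0.0873, exact permutation p = 0.0159). The call was lost on size, with log2 fold changes from 0.22 to 0.26, without control pool 2 or 4 or susceptible pool 2. Against resilient pools the difference was 0.14 with an SE of 0.09 and was not called, although the groups did not overlap (exact permutation p = 0.00794, the smallest possible).

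Abcg1 had log2 CPM of 6.80, 6.94, 7.17, 7.10 and 6.96 in control pools, 6.97, 6.84, 6.81, 6.66 and 6.66 in resilient pools and 6.93, 6.54, 6.77 and 6.63 in susceptible pools. Of the susceptible pools, 3 of 4 were below every control pool, so the groups overlapped. The log2 fold change was -0.28 with an SE of 0.10 in susceptible against control pools (limma p = 0.0156, adjusted p = 0.131, exact permutation p = 0.0397). In resilient against control pools it was -0.21 with an SE of 0.10 (limma p = 0.04998, exact permutation p = 0.0794), under the minimum fold of 1.2. The call in susceptible pools was lost, with log2 fold changes from -0.25 to -0.22, without control pool 3 or 4 or susceptible pool 2 or 4, and under scaling to recovered reads, at -0.21. The direction of the Abca1 and the Abcg1 value in susceptible against control pools was the same under every alternative run and with each library left out. For Abca1 no single left-out library could have changed the direction, as its groups did not overlap. In each of the 4 susceptible pools Abca1 lay above and Abcg1 below its control mean, and both carry the seed matches of miR-33-5p printed above. A part of miR-33-5p in these values was not tested.

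The AGO2-bound miRNA itself did not pass the test here. The paper lists miR-33 as nominally higher in susceptible than in control B6 mice. Beside it the paper gives Abca1 as a predicted target whose AGO2-bound mRNA was itself differentially expressed in the same direction. Its authors first adjusted these miRNA values for detected surrogate variables, which was not done here. miR-33-5p had 78 to 280 reads per library, and its log2 CPM was 4.57 to 5.02 in 5 control, 4.38 to 5.49 in 5 resilient and 4.81 to 5.13 in 3 susceptible libraries. The susceptible against control difference was 0.15 with an SE of 0.24 (limma p = 0.522, exact permutation p = 0.304), and the groups overlapped. The other arm, miR-33-3p, had 0 to 30 reads per library, with 0 in 1 control library, so its values carry little weight. Of 14 rows for listed miRNAs that are known or often named as regulators of these genes, 2 were called in resilient against control libraries, beside 9.52% of all 788 rows. miR-301b-3p was higher by 0.34 with an SE of 0.16 (limma adjusted p = 0.391). A row for miR-128-3p from 1 of its 2 precursors was lower by 0.30 with an SE of 0.12 (adjusted p = 0.305). It was also higher by 0.30 in susceptible than in resilient libraries (adjusted p = 0.983), where 3.93% of all rows were called. The row of its second precursor, with the same mature sequence, went the other way in both comparisons without a call, so the split of reads between them is uncertain. None was called in susceptible against control libraries by limma, beside 4.7% of all rows, none of these 14 at an unadjusted p under 0.05.

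Of the synthesis and uptake genes among the 8, none was called in the AGO2 libraries. Sqle (chr15:59315077-59331192, plus strand) encodes squalene epoxidase, an early oxygen-dependent step of sterol synthesis, and NPC1 lets cholesterol leave the lysosome. Hmgcs1, Sqle and Npc1 had log2 fold changes from -0.04 to 0.09 over the 3 comparisons, with SEs from 0.07 to 0.14. Npc1 varied least, within 6.96 to 7.16 log2 CPM over all 14 pools. Together, 3 of the 8 genes were called in susceptible against control pools, 2 higher and 1 lower, beside 18.9% of all genes tested, with 9.65% called higher and 9.28% called lower. Srebf1 alone of the 8 had an adjusted p under 0.05, as had 4.02% of all genes. That share stood for 666 genes, and the number was 36 without susceptible pool 2 and 1112 without resilient pool 3, and 209 to 1428 under the other settings. In resilient against control pools 1 of 8 was called, higher, beside 17.7% of all genes called and 8.65% called higher. No gene of the 8 was called between susceptible and resilient pools, where limma called 2.14% of all genes, none of them at an adjusted p under 0.05. None of the 8 had an unadjusted p under 0.05 there. The median log2 fold change of the 8 genes was 0.06 in susceptible against control pools and that of all genes -0.01.

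**Figure D3:**
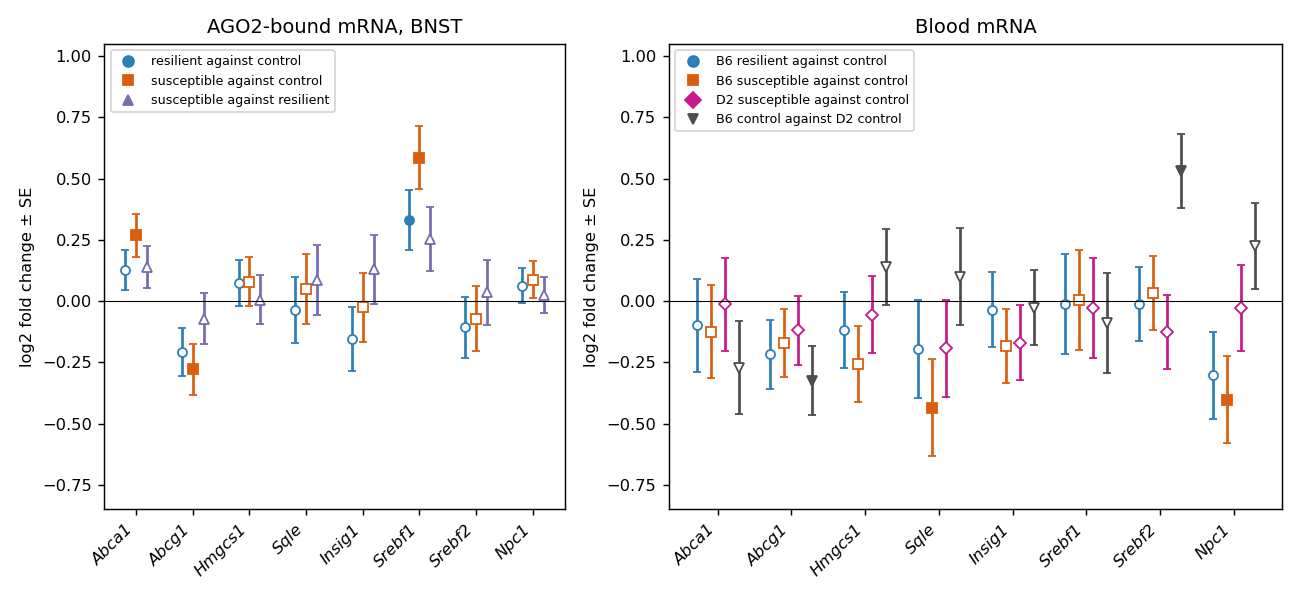
Log2 fold change ± SE from limma of the 8 genes in 3 comparisons of AGO2 libraries (left) and 4 comparisons of blood (right). Filled points passed p under 0.05 with a fold of at least 1.2, which were Abca1, Abcg1 and Srebf1 in AGO2 libraries and Sqle, Npc1, Abcg1 and Srebf2 in blood.

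Around these genes, 14 of 60 other measured pathway genes were called in susceptible against control pools, 12 higher and 2 lower, a share of 23.3% beside the 18.9% of all genes. The list for efflux and LXR had the most, with 5 of 12 called, all higher. Abca1 and Abcg1, left out of these counts, belong to the same list, and Abca1 was called higher and Abcg1 lower. Abca7, a lipid transporter related to Abca1, had log2 CPM from 5.17 to 5.90 in control and from 5.95 to 6.89 in susceptible pools, so the groups did not overlap. Its log2 fold change was 1.09 with an SE of 0.20 (limma adjusted p = 0.0111), and in resilient pools it was 1.01 with an SE of 0.19 (adjusted p = 0.0192). Abca2, another lipid transporter of the same family that is prominent in oligodendrocytes, rose by 0.56 with an SE of 0.12 in susceptible pools (adjusted p = 0.0228). Nr1h2, which encodes LXR beta, rose by 0.31 with an SE of 0.14 (adjusted p = 0.228), and Abcg4 and Rxrb were the other called genes of that list.

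In the SREBP list 1 of 4 genes was called, as Scap, the escort protein that carries SREBPs to the Golgi, rose by 0.49 with an SE of 0.12 in susceptible pools (limma adjusted p = 0.0339). Of 20 synthesis genes 3 were called, all higher: Lss, the enzyme that closes the sterol ring, rose by 0.43 with an SE of 0.11 (adjusted p = 0.0316), Tm7sf2 by 0.52 and Fdps by 0.34. Of 10 uptake genes 3 were called, all higher, among them Lrp1, a large lipoprotein receptor, at 0.51 with an SE of 0.13 (limma adjusted p = 0.0356) and Lrp8, the reelin and ApoE receptor, at 0.27. Npc2, the partner of NPC1 in the lysosome, was the 1 called gene of 8 in the lysosomal list and fell by 0.29 (adjusted p = 0.195), and Nceh1, which releases cholesterol from its esters, was the 1 of 6 in the esterification list and fell by 0.27 (adjusted p = 0.13). Apoe, the main apolipoprotein of the brain, had a log2 fold change of -0.28 with an SE of 0.15 and was not called (adjusted p = 0.307).

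In resilient against control pools 12 of the 60 genes were called, 10 higher and 2 lower, a share of 20% beside the 17.7% of all genes. Besides Abca7 these included Abca2 (0.54, SE 0.12, limma adjusted p = 0.0292), Lrp1 (0.50, SE 0.12, adjusted p = 0.0422) and Npc2 (-0.41, SE 0.12, adjusted p = 0.0754). Apoe and Nr1h2 were not called there. None of the 60 was called by limma between susceptible and resilient pools. The comparisons with controls share the same 5 control pools.

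Markers of several cell types moved with the same groups. The summed level of 7 neuronal markers was 10.99 to 11.14 log2 CPM in control and 10.55 to 10.95 in susceptible pools without overlap, and 4 of the 7 were called lower. Of 6 astrocyte markers 3 were called lower and 1 higher, with sums of 10.6 to 10.8 in control and 10.1 to 10.5 in susceptible pools. Of 6 oligodendrocyte markers 2 were called lower and 1 higher, with sums of 11.8 to 12.4 and 11.1 to 11.8. Of 6 markers of choroid plexus, the tissue of the brain ventricles that makes cerebrospinal fluid, 5 were called lower, and their sum was 3.12 to 7.29 in control and 2.78 to 5.57 in susceptible pools. Of 6 microglial markers 1 was called higher and 1 lower, with sums of 6.75 to 7.02 and 6.54 to 7.10, and of 5 endothelial markers 1 was called lower, with sums of 7.09 to 7.34 and 6.90 to 7.23. Within groups, over the 14 pools, Pearson's r of Srebf1 was -0.14 with the neuronal, -0.48 with the astrocyte, 0.11 with the oligodendrocyte, -0.28 with the microglial, -0.36 with the endothelial and -0.07 with the choroid plexus sum. In the same order it was -0.40, -0.43, -0.57, -0.12, -0.08 and 0.27 for Abca1. For Abcg1 it was 0.71, 0.20, 0.29, -0.50, 0.30 and 0.25. The part of these cell types in the results for Abca1, Abcg1 and Srebf1 was not tested.

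In blood of B6 mice, Sqle and Npc1 were lower in susceptible mice than in controls and the other 6 genes did not pass the test. These were 2 of 8 called, both lower, beside 4.5% of all genes called in either direction and 1.52% called lower. Neither call survived adjustment (adjusted p = 0.968 for both), and limma found no gene of the 13084 at an adjusted p under 0.05. Sqle had log2 CPM of 1.70, 2.01, 2.53, 2.61 and 2.22 in control mice, 2.01, 1.92, 1.98, 2.18 and 1.97 in resilient mice and 2.19, 1.87, 1.17, 1.83 and 1.82 in susceptible mice. Only 1 susceptible mouse lay below all controls. The log2 fold change was -0.44 with an SE of 0.20 (limma p = 0.0379, exact permutation p = 0.0952).

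Npc1 had log2 CPM of 4.14, 4.46, 4.43, 4.80 and 4.21 in control mice, 4.11, 3.73, 4.22, 4.09 and 4.37 in resilient mice and 4.55, 4.21, 3.52, 3.92 and 3.82 in susceptible mice. Here 3 of 5 susceptible mice were below all controls, and the highest susceptible mouse was above 4 of 5 controls. The log2 fold change was -0.40 with an SE of 0.18 (limma p = 0.0317, exact permutation p = 0.111). Exons of Npc1 share 511 bases with Rmc1 on the opposite strand.

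The values differed with the title prefix of the mice, EC3 or EC4, whose meaning is not given. Within EC4, 3 susceptible against 3 control mice, the log2 fold change was -0.84 with an SE of 0.26 for Sqle and -0.72 with an SE of 0.19 for Npc1, and both were called. Within EC3, 2 against 2, it was 0.18 with an SE of 0.33 and 0.08 with an SE of 0.25, and neither was called. This split was chosen after seeing the data, and the difference between prefixes was not tested. Over all settings run, prefixes included, 266 to 1060 of all 13084 genes were called in susceptible against control B6 mice. Neither gene was called when only the B6 control and susceptible mice were fitted, at the same fold changes, or under scaling to recovered reads, at -0.59 and -0.56. Without susceptible mouse 3 the values were -0.28 for both, with no call. The call of Sqle also ended without control 3, 4 or 5, at -0.43 to -0.34, and that of Npc1 without control 2 or 4 or susceptible mouse 4 or 5, at -0.39 to -0.30. Platelet markers moved in the same comparison, with 4 of 5 called higher and sums of 10.5 to 12.4 log2 CPM in control and 11.8 to 13.2 in susceptible mice, while no neutrophil, monocyte, B cell, T cell, NK cell or erythroid marker was called. Within the groups, over the 25 mice, Pearson's r with the platelet sum was -0.05 for Npc1 and 0.12 for Sqle. For Npc1 r was 0.72 with the monocyte, 0.66 with the neutrophil and -0.67 with the erythroid sum, and for Sqle 0.20, 0.37 and -0.08. The part of blood cell composition in these values was not tested.

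**Figure D4:**
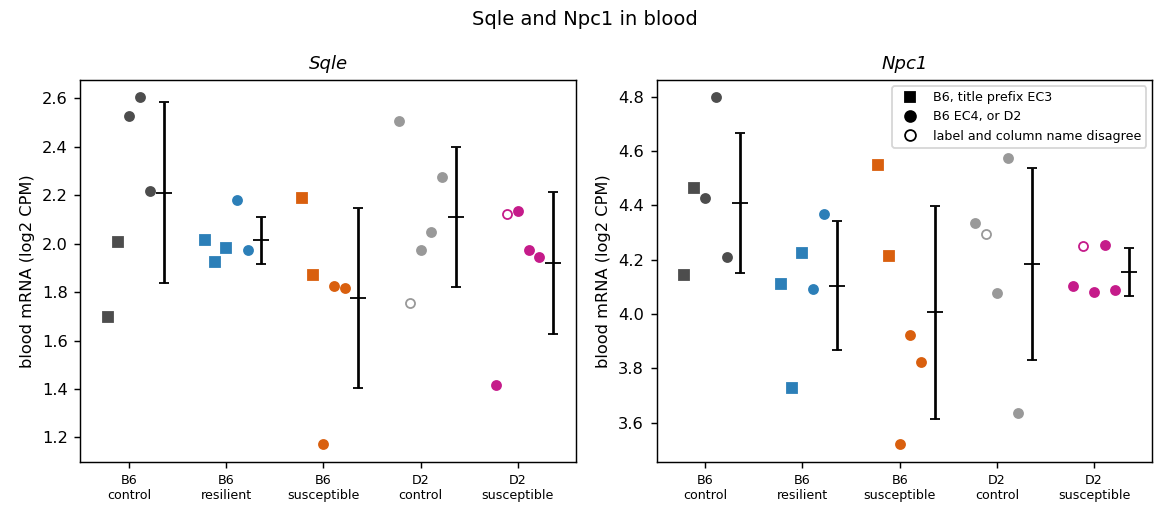
Sqle (left) and Npc1 (right) in blood in log2 CPM, 1 point per mouse in 5 groups of 5 mice with the mean ± SD in black; squares are B6 mice of the title prefix EC3 and open circles the 2 D2 mice with conflicting names. The lowest values of the B6 susceptible group are those of EC4 mice, with replicate 3 at 1.17 for Sqle and 3.52 for Npc1.

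The remaining 6 genes had log2 fold changes from -0.26 to 0.03 in susceptible against control B6 blood. Hmgcs1 had the lowest, -0.26 with an SE of 0.16 (exact permutation p = 0.0873). In resilient against control B6 mice none of the 8 was called by limma, beside 2.11% of all genes, and none had a p under 0.05. All 8 values were below 0 there, from -0.30 for Npc1 to -0.01 for Srebf1, with a median of -0.11 against 0.02 for all genes. Between susceptible and resilient B6 mice none was called, with values from -0.24 to 0.05 and no p under 0.05, beside 2.03% of all genes. None was called in D2 susceptible against D2 control mice, where limma called 1.57% of genes, and again no p was under 0.05. Sqle had a log2 fold change there of -0.19 with an SE of 0.20, which was -0.33 without the 2 mice of conflicting names and -0.34 with the groups of the column names, again with no call. Npc1 had -0.03 with an SE of 0.18, and leaving out single D2 control mice moved it between -0.17 and 0.07.

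Whether the response of B6 and D2 mice differed was tested as an interaction of strain and stress. No gene of the 8 was called by limma, beside 5.37% of all genes, and none had a p under 0.05. The interaction was 0.37 with an SE of 0.25 for Npc1 and 0.24 with an SE of 0.28 for Sqle, where a positive value stands for a higher log2 fold change in D2. For Npc1 it passed the test, at 0.51 with an SE of 0.24, without B6 susceptible mouse 1.

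Of the comparisons in blood, only that between strains gave a gene of the 8 an adjusted p under 0.05. The share of the 8 genes called there was no higher than that of all genes. Srebf2 was higher in B6 than in D2 control blood, and miR-33-5p from its intron was higher as well. In control mice 2 of the 8 genes were called, 1 higher and 1 lower in B6, beside 26.4% of all genes. At an adjusted p under 0.05 it was Srebf2 alone, beside 15.5% of all genes. Srebf2 had log2 CPM of 3.42, 3.32, 3.57, 3.25 and 3.24 in B6 control and 2.85, 2.84, 2.76, 2.71 and 3.00 in D2 control mice, with no overlap. The difference was 0.53 with an SE of 0.15, a fold of 1.45 (limma p = 0.00168, adjusted p = 0.0155, exact permutation p = 0.00794, the smallest possible). It was called at 0.53 without the 2 mice of conflicting names and 0.61 with the groups of the column names. Scaled to recovered reads it was 0.36 with an SE of 0.20 and missed the threshold, a scaling that moved the median of all genes from -0.01 to -0.18 in this comparison. In the defeated groups Srebf2 was 2.74 to 3.70 in B6 resilient, 2.98 to 3.69 in B6 susceptible and 2.45 to 2.86 in D2 susceptible mice.

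miR-33-5p had log2 CPM of 3.15, 1.23, 1.76, 2.45 and 2.81 in B6 control and 0.65, -0.40, 0.65, 0.61 and -1.95 in D2 control blood, from 18 to 60 and from 2 to 13 reads. All 5 B6 mice were above all 5 D2 mice. The difference was 2.37 with an SE of 0.51, a fold of 5.15 on this log2 scale with its 0.5 added reads (limma adjusted p = 0.00121, exact permutation p = 0.00794), beside 25.4% of 299 miRNAs called and 17.7% at an adjusted p under 0.05. Without the 2 mice of conflicting names, an alternative chosen after seeing the data, it was 2.29 with an SE of 0.56 and was called. Susceptible mice ranged from 0.34 to 2.49 in B6 and from -0.96 to 1.37 in D2. No stress comparison of miR-33-5p in blood passed the test, with log2 fold changes of -0.37, -0.49 and 0.12 and SEs of 0.51 in B6 resilient, B6 susceptible and D2 susceptible mice against their controls. Of the listed miRNAs, miR-106b-5p, miR-145a-5p and miR-185-5p were also measured in blood, and none of the 4 was called by limma in a stress comparison, none at an unadjusted p under 0.05. Of all 299 miRNAs 4.35% were called in resilient and 4.01% in susceptible B6 mice against controls, 3.01% between these, 8.7% in D2 mice and 4.35% in the interaction. The counting was against a reference built on a B6 genome, and the part of strain variants in these differences was not tested.

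**Figure D5:**
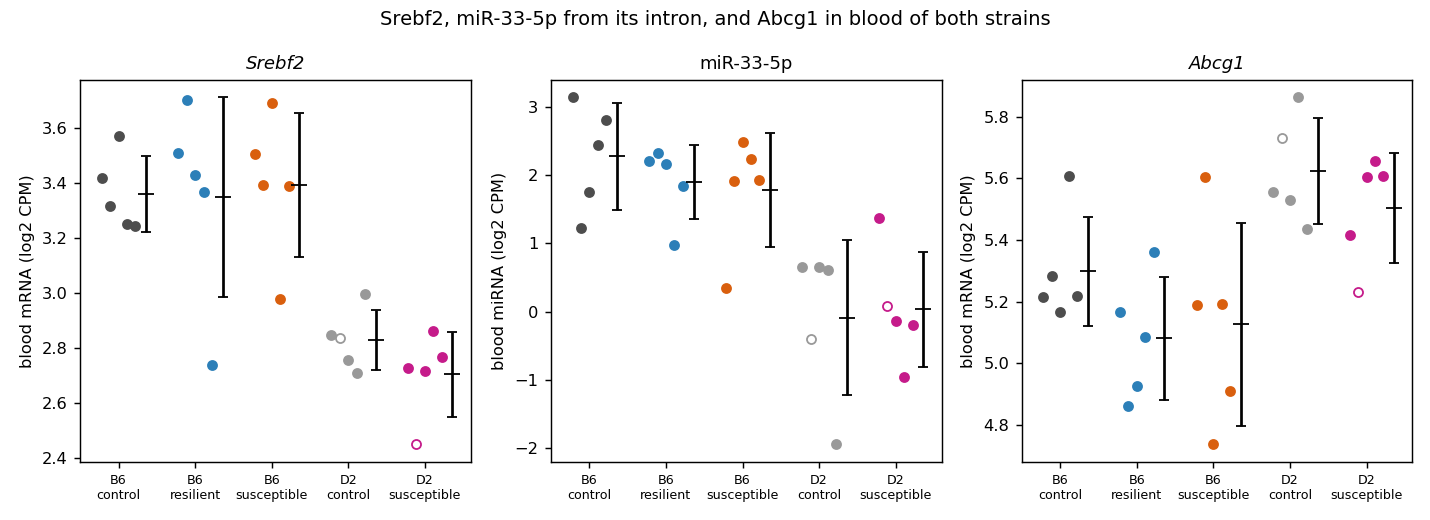
Srebf2 mRNA (left), miR-33-5p (middle) and Abcg1 mRNA (right) in blood in log2 CPM, 1 point per mouse in 5 groups of 5 mice with the mean ± SD in black and open circles for the 2 D2 mice with conflicting names. In Srebf2 and miR-33-5p all B6 control mice lie above all D2 control mice, and in Abcg1 4 of 5 B6 control mice lie below all D2 control mice.

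Abcg1, a carrier of miR-33-5p seed matches, was lower in B6 control blood. A part of miR-33-5p in this difference was not tested. Its log2 CPM was 5.22, 5.28, 5.17, 5.61 and 5.22 in B6 and 5.56, 5.73, 5.53, 5.86 and 5.43 in D2 control mice, with 4 of 5 B6 mice below all D2 mice. The difference was -0.32 with an SE of 0.14 (limma p = 0.0292, adjusted p = 0.129, exact permutation p = 0.0317). Without the 2 mice of conflicting names it was -0.30 and not called, and with the groups of the column names -0.23 and not called. The call was also lost without B6 control 1, 3 or 5 or D2 control 2 or 4, at -0.31 to -0.26, after quantile normalization at -0.28 and under scaling to recovered reads at -0.49. Abca1 had a difference of -0.27 with an SE of 0.19 and was not called. The other 5 genes had differences from -0.09 to 0.23.

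Among the other pathway genes in control blood, 15 of 58 measured were called between strains, 7 higher and 8 lower in B6, a share of 25.9% beside the 26.4% of all genes. The 4 with the smallest p were Stard4, a carrier of sterols between membranes, lower in B6 by a log2 difference of -1.06 (SE 0.14, limma adjusted p = 3.62e-06), Mylip, a ubiquitin ligase and LXR target, higher by 0.70 (SE 0.12, adjusted p = 0.000164), Cd36, a scavenger receptor, higher by 1.74 (SE 0.36, adjusted p = 0.00108), and Ggps1, at a branch point of the mevalonate pathway, higher by 1.38 (SE 0.30, adjusted p = 0.00207). Apoe and Nr1h2 were not called. Erythroid markers differed too, 3 of 7 higher and 1 lower in B6, with sums of 16.8 to 17.4 log2 CPM in B6 and 15.9 to 17.3 in D2 control mice, as did 5 of 5 B cell markers (higher) and 3 of 5 platelet and 2 of 6 neutrophil markers (lower), with 1 called marker each for monocytes, T cells and NK cells. Srebf2 had a Pearson's r of 0.63 with the erythroid sum within groups over 25 mice. With the platelet, neutrophil and monocyte sums it had 0.21, 0.0004 and -0.28. With the B cell, T cell and NK cell sums it had -0.41, -0.59 and -0.40. The part of these cell types in the strain differences was not tested.

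In susceptible against control B6 mice 6 of the 58 pathway genes were called, 4 higher and 2 lower, a share of 10.3% beside the 4.5% of all genes. Mvd, an enzyme of the mevalonate pathway, fell by 0.61 (SE 0.21), Lipa, the lysosomal acid lipase, fell by 0.78 (SE 0.29), and Abca7 rose by 0.40 (SE 0.14). None reached an adjusted p under 0.05, with 0.968 for each of these 3. In resilient against control B6 mice Acat2 (0.38, SE 0.16) and Abca7 (0.31, SE 0.14) were called, both higher, a share of 3.45% beside 2.11% of all genes. Between susceptible and resilient B6 mice the 4 called genes, 6.9% beside 2.03% of all genes, were all lower in susceptible mice: Mvd (-0.58), Lss (-0.53) and Mvk (-0.51) of the synthesis list and Lipe (-0.40). In D2 mice limma called none of the 58, beside 1.57% of all genes. In the interaction 6 were called, 10.3% beside 5.37% of all genes. Of these 6, 1 had a positive and 5 a negative value, and of all called genes 14.9% had a positive value. The smallest p of the 6 was that of Abca7 (-0.50, SE 0.20). Apoe and Nr1h2 were called in none of these stress comparisons of blood.

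Finally, the genes whose levels followed the 8 most closely were listed, as a description across all libraries of a table, which share groups, depth and cell makeup. In the 14 AGO2 libraries Srebf1 was most like Pnpla6 and Engase (Pearson's r = 0.92 for both), Srebf2 like Zc3h4 (0.95) and Por (0.92), Insig1 like Rc3h1 (0.93) and Acsl3 (0.91) and Hmgcs1 like Mcl1 (0.93) and Zfp970 (0.88). Abca1 was most like Ampd3 and Gm37488 (0.89), Abcg1 like Usp22 (0.88) and Ywhae (0.87), Sqle like Kcnh7 (0.91) and Prlr (0.89) and Npc1 like Gnpat and Gm45137 (0.83). Among the pathway genes themselves, Srebf1 and Nr1h2 had an r of 0.90 and Srebf2 and Apoe of 0.83, whereas Insig1 and Srebf2 had -0.68 and Abcg1 and Npc1 -0.74. In the 25 blood libraries Srebf2 was most like Dop1b (0.92) and Nacc1 (0.91), Abca1 like Atp10d (0.90) and Itpr1 (0.89), and Srebf1 like Klhl36 (0.86). Abcg1 followed Agps (0.86) and Dnajc3 (0.85), Npc1 Plaur (0.83) and Ctss (0.83), Hmgcs1 Gfi1 (0.80) and Mtmr2 (0.79), Insig1 Ltn1 (0.78) and Hnrnpab (0.76) and Sqle Sh2d1b1 (0.70) and Utp14b (0.64). Abca1 and Abcg1 had an r of 0.71 with each other in blood.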

How the data were processed

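AGO2-bound mRNA and miRNA of BNST pools and mRNA and miRNA of blood were sequenced. Per the paper's methods, mRNA reads were aligned with STAR to GRCm38 and counted with HTSeq, and miRNAs were counted with miRDeep2 and Bowtie 1.1.1. The authors kept features with at least 1 CPM in at least 6 blood or 3 AGO2 samples and transformed the counts with voom, so the deposited values are log2 CPM with 0.5 reads added and an effective library size per sample. The deposited log2 values held no correction for cohort, and no cohort term was fitted for the AGO2 libraries here. Reads recovered from every value were whole within 0.0001 reads. In blood the effective size was 0.644 to 1.53 times the recovered reads.

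Here limma 3.58.1 (R 4.3.3) was fitted on the deposited log2 values of all genes of a table, all groups in 1 model, with empirical Bayes moderation and a mean-variance trend. Calls needed a limma p under 0.05 together with a fold of 1.2 or more, and p was adjusted over the whole table (Benjamini-Hochberg). Tests were two-sided, and exact permutation tests used every assignment of libraries to both groups. Where groups of a gene did not overlap, this is a description, as the share of all genes without overlap is not given. The fit recovered changes in simulated data. RPKM were computed from the log2 values and the summed exon length (GENCODE M21), found for 16535 of 16587 and 13054 of 13084 genes. Figures were drawn with matplotlib 3.10.9 in Python 3.11.15.

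Groups came from the sample labels. No 2 libraries of a group agreed within sampling noise. The AGO2 replicate numbers did not pair the libraries. The 8 genes, the 6 pathway lists, the marker lists and the miRNA list were chosen with earlier results of these data known. Besides the 8 genes, the text names the 4 called pathway genes with the smallest p in each comparison, Apoe and Nr1h2, both arms of miR-33, called miRNAs of the list and the 2 genes most like each of the 8. Lrp1, Lrp8, Tm7sf2, Fdps, Abcg4, Rxrb, Npc2 and Nceh1 in susceptible pools were named outside that rule after their values were seen. Alternatives were another scaling, quantile normalization, sample or voom weights, no trend, 2 added reads, a minimum mean level, fewer groups, blocks for replicate number or title prefix, other groups for the 2 conflicting mice, and each library left out. Some results that this rule would name are not reported here.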

Additional observations from a re-analysis of the deposited data

Results flagged for a closer look

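In 71 groups of 4 or 5 libraries, the highest or lowest library stood apart from the rest in 8, and chance sets about 1 in 20 groups apart. In the AGO2 libraries these were Abca1 in the fifth resilient pool (6.86 log2 CPM, next 7.00) and in the second susceptible pool (7.27, next 7.10), Insig1 in the third resilient pool (6.04, next 6.48) and Npc1 in the second resilient pool (6.99, next 7.08). In blood they were Abcg1 in B6 control 4 (5.61, next 5.28), Insig1 in B6 control 1 (3.28, next 3.72), Sqle in D2 susceptible 1 (1.42, next 1.94) and miR-33-5p in B6 susceptible 1 (0.34, next 1.92). Without the second susceptible pool Abca1 was higher than in controls by 0.22 instead of 0.27 on the log2 scale.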

How the results depend on the processing

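Of the called values, Srebf1 in susceptible against control pools passed the unadjusted test and the minimum fold under every alternative run, and Srebf2 between strains under all but scaling to recovered reads. In susceptible against control pools 3 of the 8 genes were called as reported and 1 with sample weights. Between susceptible and resilient pools 1 instead of 0 was called after scaling to recovered reads and after quantile normalization, Srebf1 both times, and Abcg1 there turned to 0.0055 with the first of these. In B6 susceptible against control blood 2 genes were called as reported, 0 after scaling to recovered reads, 0 with only the compared groups, 1 with a block for title prefix and 0 within EC3. Within EC3 Sqle reversed to 0.18 and Npc1 to 0.077, and Sqle in resilient against control mice to 0.12. Between susceptible and resilient B6 blood 1 instead of 0 was called within EC3 and 1 within EC4. Within EC4, 2766 of all 13084 genes were called in that comparison, against 266 as reported. In D2 blood 1 instead of 0 was called with sample weights, Sqle at -0.42. That setting called 992 of all genes there, against 206 as reported. Between strains 2 were called as reported, 0 after scaling to recovered reads and 1 each after quantile normalization, with the groups of the column names and without the 2 mice of conflicting names. Of the listed miRNAs in resilient against control AGO2 libraries, 2 were called as reported and 1 each without a mean-variance trend and with the replicate block, and between susceptible and resilient libraries 1 as reported and 0 without the trend. For the reversals and changed counts the cause was not tested, beyond the fewer mice within a prefix.

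With single libraries left out, the 8 genes gave 0 to 1 calls in resilient against control pools, 1 to 3 in susceptible against control pools and 0 to 1 between these. In blood they gave 0 to 3 in B6 susceptible against control mice, 1 to 2 between strains and 0 to 1 in the interaction. The listed miRNAs gave 0 to 3, 0 to 1 and 0 to 2 in the same order of AGO2 comparisons and 1 to 2 between strains. Npc1 in D2 mice moved between -0.17 and 0.070, and reversed without D2 control 1 (0.01), 2 (0.00) or 4 (0.070). Of 64 uncalled values 38 changed sign under some alternative, none of them over 0.24 in size as reported.

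The AGO2 replicate numbers did not pair the libraries: over 13 same-numbered mRNA pairs the correlation of deviations was -0.17 to 0.14 with a mean of -0.04, and over 11 miRNA pairs it was -0.10 to 0.10. With the number as a replicate block, 1 gene was called in resilient and 2 in susceptible against control pools and 0 between them, and Abca1 was at 0.25, under the minimum fold. Blood numbers follow no label, so no paired fit was made there, and a block for title prefix between strains was not run because strain and prefix cannot be told apart.

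Scaling to recovered reads moved the median of all genes to -0.16 and -0.13 in B6 resilient and susceptible against control blood and to -0.18 between strains. The share of all called genes that were higher went from 51% to 71.4% in susceptible against control and from 44.5% to 77.1% in susceptible against resilient pools, and in blood from 40.2% to 14.4% (B6 resilient against control), 66.2% to 54.1% (B6 susceptible against control, the same with quantile normalization), 55.3% to 75.5% (susceptible against resilient, 35.8% with quantile normalization), 43.3% to 25.3% (strains) and 14.9% to 11.4% (interaction, 29.8% with quantile normalization), while quantile normalization alone moved D2 blood from 43.2% to 55.2%. Over all settings run, single left-out libraries and prefixes included, the number of all genes called ranged from 219 to 947 (355 as reported) between susceptible and resilient pools, the highest without resilient pool 3. In blood it ranged from 114 to 2038 (276) in B6 resilient against control mice, 266 to 1060 (589) in B6 susceptible against control mice, 102 to 2766 (266) between these, 118 to 992 (206) in D2 mice and 371 to 1321 (703) in the interaction. The highest number in the interaction, 1321, came with the groups of the column names. At 21 to 91 reads for Sqle in blood and 2 to 60 for miR-33-5p, small differences were not detectable.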
